A study of Homo sapiens with 24 samples.

Results

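A set of 10 genes that code for feedback inhibitors and early outputs of the ERK kinases was followed through RAS-induced senescence in human fibroblasts. The rule names the genes by symbol and uses no measured value, although earlier results of these data were known when it was made: DUSP4, DUSP5, DUSP6, DUSP10, SPRY2, SPRY4, SPRED1, SPRED2, EGR1 and PHLDA1. All 10 were found among the 25702 gene identifiers counted, and all 10 were among the 13356 genes that had enough reads to be tested, with a lowest count of 59 in any sample. RNA was sequenced from 24 samples of IMR90 cells, a line of human lung fibroblasts at passage 23 to 28, in 4 groups of 6 biological replicates. All 24 samples, controls included, carried a retroviral ER:HRAS(G12V), an oncogenic HRAS fused to the oestrogen receptor that 4-hydroxytamoxifen (4OHT) switches on. Growing cells carried the MSCV vector and received no agent, and shHMGA1 cells carried MSCV miR30 shHMGA1, a hairpin named for the chromatin protein gene HMGA1, and also received none. RIS cells carried the vector and RIS+shHMGA1 cells the hairpin, and both were given 4OHT for 6 days. Since only these groups received the agent, an effect of 4OHT itself and an effect of RAS cannot be told apart. The hairpin groups rest on 1 hairpin construct, and each sample is a population of infected cells, so that in these bulk data fewer cells expressing a gene and less RNA per cell cannot be told apart.

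RAS passes its signal through the kinases RAF, MEK and ERK, and active ERK switches on genes that then dampen the same signal. The dual-specificity phosphatases (DUSPs) take the phosphate off MAP kinases, DUSP4 and DUSP5 in the nucleus and DUSP6 in the cytoplasm, whereas DUSP10 acts mainly on the stress kinases p38 and JNK. Sprouty proteins (SPRY2, SPRY4) restrain signalling between growth factor receptors and RAS or RAF, and SPRED1 and SPRED2 bring the RAS inactivator neurofibromin to the membrane. EGR1 is an immediate-early transcription factor of the ERK response, and PHLDA1 is a pleckstrin homology-like protein that growth factor and ERK signals induce. In fibroblasts, sustained oncogenic RAS is known to bring about both senescence and strong expression of such negative regulators.

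The values below are CPM, counts scaled to a common sequencing depth, on library sizes normalised by TMM, which sets the bulk of genes equal between samples, and total counts ran from 8698070 to 23103424 with a median of 10604084. Differences are log2 fold changes with their standard error (SE) from edgeR's quasi-likelihood fit of all 24 samples, and a gene was called when its adjusted p (Benjamini-Hochberg over all 13356 genes) was under 0.01 and its log2 fold change above 0.58 or below -0.58. HMGA1 averaged 712 ± 82.0 CPM (SD, n = 6) in growing and 723 ± 50.05 in RIS cells against 105 ± 41.0 in shHMGA1 and 174 ± 85.6 in RIS+shHMGA1 cells. It was lower in every sample with the hairpin than in any without, but unevenly so. Its range was 54.4 to 143 CPM in shHMGA1 and 60.0 to 262 CPM in RIS+shHMGA1 cells. The summed level of 8 fibroblast markers lay between 4434 and 40999.8 CPM, that of 4 endothelial markers was at most 2.65 CPM, and PTPRC, CD3E, CDH1 and KRT5 were each at most 0.688 CPM in any sample. The sums of the epithelial list (33.5 to 52.5 CPM) and the leukocyte list (40.7 to 106 CPM) came mainly from KRT18 and CD68, and their part in the results was not tested.

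Growing replicate 4 and RIS replicate 2 went against their labels. Over the 10 genes, growing replicate 4 lay at a root mean square distance of 0.19 from the RIS median on the log2 CPM scale and of 1.47 from the growing median. RIS replicate 2 lay 0.18 from the growing and 1.43 from the RIS median, while each of the other 22 samples was nearest to its own group. Markers that are no members moved with this: 4 proliferation markers summed to 61.9 CPM in growing replicate 4 against a growing median of 469, and to 473 CPM in RIS replicate 2 against a RIS median of 62.5. The 8 fibroblast markers summed to 5149 CPM in growing replicate 4 and to 27484 CPM in RIS replicate 2, against medians of 27511 in growing and 7617 in RIS cells. The 6 senescence markers summed to 75632 CPM in growing replicate 4 and to 3389 CPM in RIS replicate 2, against medians of 5197 and 42284 CPM. Whether the labels of these samples were exchanged could not be settled from the sources used here, and every value of the growing and RIS groups over 24 samples carries that doubt. Both were kept in the groups their labels give, and the log2 fold changes of comparisons that hold them are given with and without them, the second from a fit of the remaining 22 samples. The 2 samples were picked out by their values, those of the 10 genes included. Narrower groups and smaller adjusted p values over 22 samples follow in part from that choice and are no separate support.

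Promoters of 5 of the genes are printed because they show what the starts of some of the genes that rose with RAS (DUSP6, SPRY2, PHLDA1), of the immediate-early gene EGR1 and of the gene that differed with the hairpin (DUSP10) have in common and where they differ. The sequences are those of RefSeq (GRCh38.p14), from 250 bases before to 50 after an annotated start, placed by an exact match in GRCh37, the build to which the reads were mapped. They read 5′ to 3′ on the strand of the gene, and capitals mark matches to the motifs searched on both strands.
EGR1 (chr5:137800918-137801217, plus strand): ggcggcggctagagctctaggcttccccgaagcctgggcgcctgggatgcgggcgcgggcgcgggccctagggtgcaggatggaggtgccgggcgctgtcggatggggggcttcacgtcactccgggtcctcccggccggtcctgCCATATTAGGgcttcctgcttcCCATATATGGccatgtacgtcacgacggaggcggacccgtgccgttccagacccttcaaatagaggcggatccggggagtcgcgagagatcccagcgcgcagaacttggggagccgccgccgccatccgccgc
DUSP6 (chr12:89746229-89746528, minus strand): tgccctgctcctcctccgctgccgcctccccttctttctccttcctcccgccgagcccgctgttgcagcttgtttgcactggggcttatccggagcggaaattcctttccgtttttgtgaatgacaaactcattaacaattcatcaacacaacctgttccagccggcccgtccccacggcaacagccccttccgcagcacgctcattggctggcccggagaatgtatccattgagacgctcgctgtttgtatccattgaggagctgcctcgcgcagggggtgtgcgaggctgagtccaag
SPRY2 (chr13:80915212-80915511, minus strand): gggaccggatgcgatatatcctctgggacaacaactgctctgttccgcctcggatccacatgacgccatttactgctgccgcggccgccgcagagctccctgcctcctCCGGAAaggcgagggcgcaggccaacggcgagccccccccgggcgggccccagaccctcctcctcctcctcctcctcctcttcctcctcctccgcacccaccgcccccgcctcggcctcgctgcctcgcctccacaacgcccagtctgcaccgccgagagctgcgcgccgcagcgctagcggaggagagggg
PHLDA1 (chr12:76425507-76425806, minus strand): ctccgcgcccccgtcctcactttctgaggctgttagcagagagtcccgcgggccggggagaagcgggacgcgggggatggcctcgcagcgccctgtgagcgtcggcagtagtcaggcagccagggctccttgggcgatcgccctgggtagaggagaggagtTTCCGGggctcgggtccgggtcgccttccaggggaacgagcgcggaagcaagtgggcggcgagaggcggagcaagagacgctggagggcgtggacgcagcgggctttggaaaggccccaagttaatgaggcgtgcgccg
DUSP10 (chr1:221915382-221915681, minus strand): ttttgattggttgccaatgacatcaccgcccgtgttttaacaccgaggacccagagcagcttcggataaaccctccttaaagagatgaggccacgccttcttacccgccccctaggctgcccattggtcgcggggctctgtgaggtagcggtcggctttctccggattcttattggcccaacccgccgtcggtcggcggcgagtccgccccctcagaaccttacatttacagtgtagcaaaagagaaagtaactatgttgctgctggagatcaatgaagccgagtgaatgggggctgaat
The motifs were the AP-1 site TGACTCA, the ETS motif CCGGAA, the cyclic AMP response element TGACGTCA and the CArG box that serum response factor binds. Only exact matches were counted, so that other forms of these sites, such as the ggaa in the DUSP6 window, were not searched for. The EGR1 window held 2 CArG boxes, beginning 105 and 83 bases before the start, a motif found in 1.29% of all 35116 windows of this length. The SPRY2 window shown, the first of 3, held the ETS motif 142 bases and the PHLDA1 window 89 bases before the start. This motif was found in 17.2% of windows. In the DUSP6 and DUSP10 windows there was no exact match to any of the motifs. In all, 8 of the 10 genes had an entry, with 12 windows. The 2 without one were DUSP4 and DUSP5, which had the largest rises with RAS in hairpin cells. Beyond those printed, the AP-1 site (4.95% of windows) occurred once, in the second SPRED2 window, and the cyclic AMP response element (1.85%) in none.

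With the hairpin present in both groups, most of the feedback genes were higher after 4OHT. RIS+shHMGA1 cells expressed DUSP4, DUSP5, DUSP6, SPRY2, SPRED1, EGR1 and PHLDA1 above shHMGA1 cells past both thresholds, 7 of 10 genes, against 19.6% of all genes tested. None of the 10 was called lower, and SPRED2, DUSP10 and SPRY4 were not called. In 8 of the 10, DUSP10 and SPRY4 excepted, the lowest RIS+shHMGA1 sample lay above the highest shHMGA1 sample, against 20.9% of all genes. The median log2 fold change was 0.85 over the 10 genes and -0.023 over all genes tested. The 2 samples that went against their labels are in neither group but enter the spread that all groups share. Without them the same 7 genes were called, against 22.5% of all genes, and the SE of DUSP4 was 0.19 (adjusted p = 1.8e-11).

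The nuclear phosphatases differed most. DUSP4 (Entrez 1846, GRCh37 chromosome 8, 29190581 to 29208201, minus strand, 4 exons) was expressed at 5.72, 7.83 and 9.43 CPM (lowest, median and highest of 6) in shHMGA1 cells and at 29.4, 51.3 and 60.8 CPM in RIS+shHMGA1 cells. Its log2 fold change was 2.59 (SE 0.55, adjusted p = 0.00071), a 6.03-fold rise. Within the RIS+shHMGA1 group the samples fell apart, since replicates 5 and 6 had 32.7 and 29.4 CPM and replicates 1 to 4 all had at least 49.8 CPM. DUSP5 (chromosome 10, 112257665 to 112271291, plus strand), a phosphatase restricted to ERK, lay at 36.7, 42.5 and 51.2 CPM in shHMGA1 cells and at 144, 156 and 223 CPM with RAS. It rose by 1.97 (SE 0.31, adjusted p = 0.00020). Here replicates 5 and 6 stood at the other end, with 188 and 223 CPM, above the other 4 samples.

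DUSP6 (chromosome 12, 89741012 to 89746278, minus strand, 3 exons), which keeps ERK inactive in the cytoplasm, had 135, 171 and 206 CPM in shHMGA1 cells and 481, 506 and 576 CPM in RIS+shHMGA1 cells. Its samples were tight in both groups, and it rose 3.03-fold (log2 fold change 1.60, SE 0.29, adjusted p = 0.00028). An unnamed gene, ENSG00000274021, is annotated on the opposite strand over its exons, and the strand setting of the counting is not given in the sources used here, so that its reads cannot be told apart from those of DUSP6. SPRY2 (chromosome 13, 80910111 to 80915261, minus strand) held the ETS motif in the first of its 3 promoter windows and no motif in the others. It had 71.96, 85.3 and 119 CPM without and 250.02, 263 and 292 CPM with RAS, and rose by 1.55 (SE 0.35, adjusted p = 0.0012).

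SPRED1 (chromosome 15, 38545037 to 38649450, plus strand, 7 exons) had 76.9, 83.6 and 85.4 CPM in shHMGA1 cells and 135, 170.2 and 198 CPM in RIS+shHMGA1 cells, a rise of 1.01 (SE 0.17, adjusted p = 0.00021). PHLDA1 (chromosome 12, 76419227 to 76425556, minus strand), the gene with the most reads of the 10, went from 619.9, 644 and 738 CPM to 1005, 1042 and 1182 CPM, a rise of 0.69 (SE 0.17, adjusted p = 0.0017). The antisense gene PHLDA1-AS1 overlaps it, with the same limit on strand. EGR1 (chromosome 5, 137801168 to 137804992, plus strand, 2 exons), the gene with the CArG boxes, was low in both groups, at 22.03, 24.3 and 25.5 CPM and at 29.6, 36.1 and 45.6 CPM. Its rise of 0.63 (SE 0.18, adjusted p = 0.0057) was close to the threshold, and leaving out any 1 replicate number other than 2 ended the call. SPRED2 (chromosome 2, 65537985 to 65659771, minus strand) lay at 35.2, 38.9 and 43.1 CPM and at 45.0, 48.4 and 62.0 CPM. Its groups did not overlap, but the difference of 0.40 (SE 0.12, adjusted p = 0.0054) was smaller than the fold change required.

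For the other two genes the groups overlapped. DUSP10 had 55.1, 62.5 and 66.9 CPM in shHMGA1 and 51.0, 63.4 and 78.8 CPM in RIS+shHMGA1 cells, a difference of 0.065 (SE 0.11, adjusted p = 0.60). SPRY4 had 132, 153 and 166 CPM against 119.6, 126 and 188 CPM, a difference of -0.057 (SE 0.18, adjusted p = 0.79). With library totals in place of TMM the median of all genes moved to -0.45 in this comparison, and DUSP4, DUSP5, DUSP6 and SPRY2 stayed past both thresholds, whereas SPRED1 (0.577), PHLDA1 (0.27) and EGR1 (0.21) did not. DUSP10 then stood at -0.34 and SPRED2 at -0.011.

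**Figure D1:**
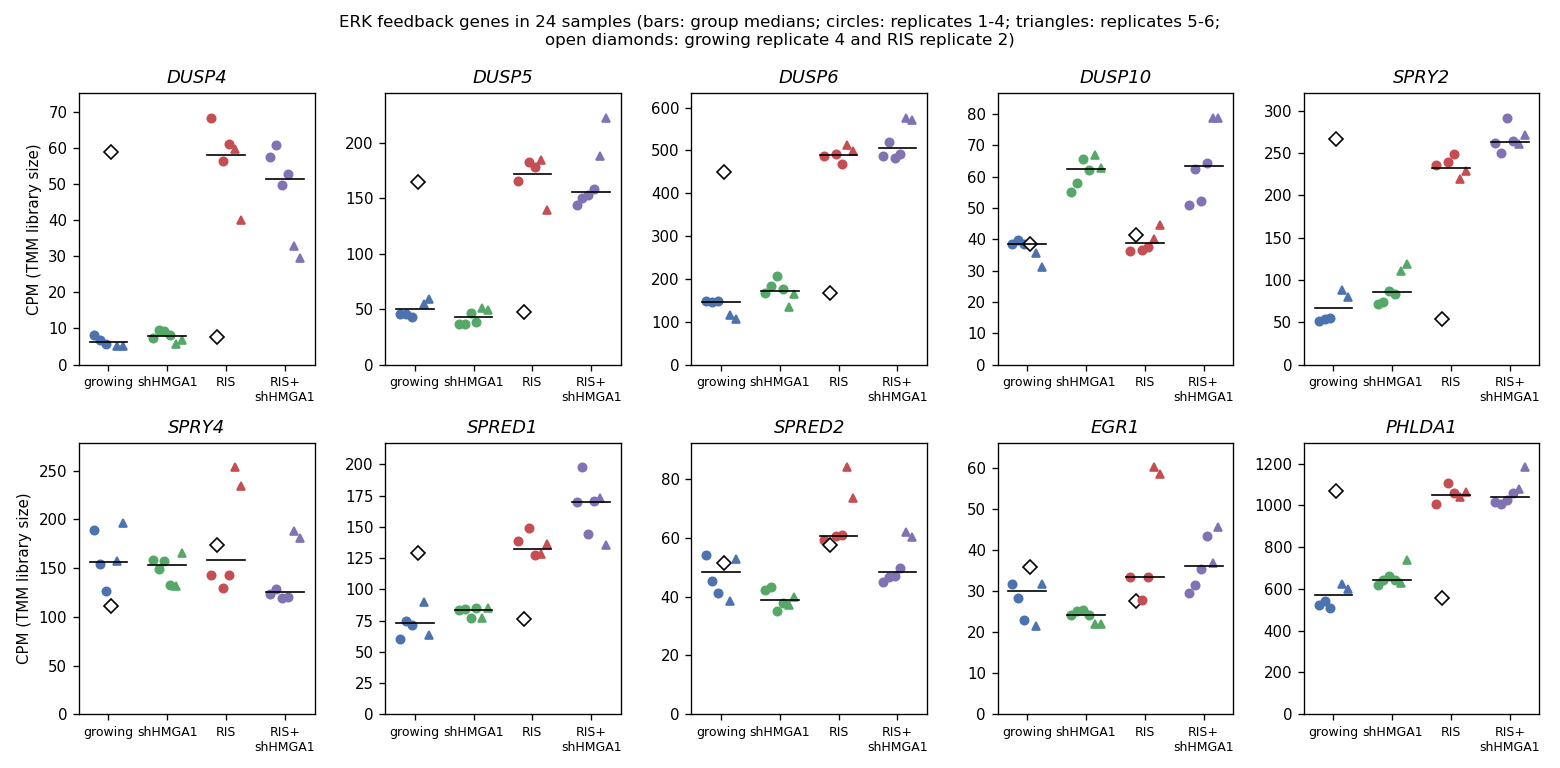
CPM of each of the 10 genes in all 24 samples by group, with 1 point per sample, a bar at each group median and axes that start at 0. The open diamonds, growing replicate 4 and RIS replicate 2, sit with the opposite group in DUSP4, DUSP5, DUSP6, SPRY2, SPRED1 and PHLDA1, and DUSP10 is higher in both hairpin groups.

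In cells with the control vector, all 10 genes were higher on average in RIS than in growing cells, but the spread within the groups was wide. None was called in the fit of 24 samples, against 0% of all genes tested, although 8 of the 10 and 4407 of the 13356 genes had an unadjusted p under 0.05 in edgeR's test. The smallest adjusted p of any gene was 0.014. With DESeq2's Wald test 4 of the 10 genes and 829 of all were called. The median log2 fold change was 0.61 over the 10 genes and -0.0051 over all genes.

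The 2 samples that went against their labels held the extremes of their groups in most of these genes. DUSP4 had 5.13, 6.27 and 58.9 CPM (lowest, median, highest) in growing and 7.62, 58.01 and 68.4 CPM in RIS cells, where 58.9 CPM is growing replicate 4 and 7.62 CPM is RIS replicate 2. The groups overlapped only through these samples, and the log2 fold change was 1.74 (SE 0.53, adjusted p = 0.034) with them and 3.17 (SE 0.21, adjusted p = 4.0e-12) without them. DUSP6 had 107, 147 and 449.6 CPM against 166, 489.5 and 512 CPM, again with growing replicate 4 highest and RIS replicate 2 lowest in their groups. It differed by 1.23 (SE 0.29, adjusted p = 0.016) with them and by 1.88 (SE 0.12, adjusted p = 1.6e-12) without them.

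DUSP5 had 42.5, 50.1 and 164 CPM in growing and 47.0, 172 and 185 CPM in RIS cells, and SPRY2 had 51.1, 66.9 and 266 CPM against 53.3, 232 and 249 CPM. In both genes the growing sample labelled replicate 4 was at the level of RIS cells and RIS replicate 2 at that of growing cells. Over 24 samples DUSP5 differed by 1.13 (SE 0.30, adjusted p = 0.022) and SPRY2 by 1.05 (SE 0.35, adjusted p = 0.047). Over 22 samples they differed by 1.78 (SE 0.14) and 1.84 (SE 0.15), with adjusted p values of 8.6e-11 and 2.3e-10 in edgeR's test.

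SPRED1 (59.9, 72.8 and 129 CPM against 75.9, 132 and 149 CPM) and PHLDA1 (509.7, 573 and 1068 CPM against 555, 1049 and 1108 CPM) followed the same pattern with smaller differences. They rose by 0.92 (SE 0.11) and 0.91 (SE 0.091) over 22 samples, both called. EGR1, at 21.5, 30.1 and 36.0 CPM in growing and 27.8, 33.5 and 60.2 CPM in RIS cells, was also called over 22 samples, at 0.64 (SE 0.18, adjusted p = 0.0033). In all, 7 of the 10 genes were called higher in RIS than in growing cells over 22 samples, against 19.2% of all genes. In 7 genes, DUSP4, DUSP5, DUSP6, SPRY2, SPRED1, SPRED2 and PHLDA1, every RIS sample then lay above every growing sample, which held for 15.9% of all genes. The samples left out were picked by values that include these genes, so that this gap is in part a product of the choice.

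SPRED2 was the only gene of the 10 with every RIS sample above every growing sample when all 24 were kept, which held for 0.157% of all genes. It had 38.6, 48.4 and 54.1 CPM in growing and 57.7, 60.7 and 83.9 CPM in RIS cells, a difference of 0.48 (SE 0.12, adjusted p = 0.017) with all samples and of 0.54 (SE 0.12, adjusted p = 0.00049) without the 2, in both cases under the required fold change. SPRY4 (111, 156 and 196 CPM against 130.01, 158 and 253 CPM) and DUSP10 (31.1, 38.5 and 39.8 CPM against 36.2, 38.7 and 44.5 CPM) overlapped in either case. Their differences over 24 samples were 0.20 (SE 0.18, adjusted p = 0.43) and 0.088 (SE 0.11, adjusted p = 0.57).

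**Figure D2:**
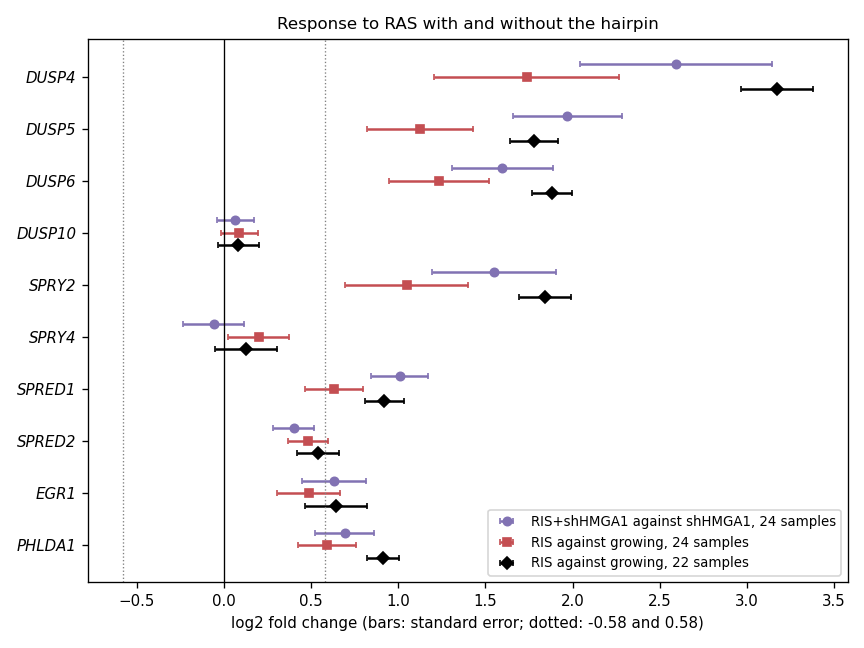
Log2 fold change with 4OHT for each gene (point) with its standard error (bar), in hairpin cells and in vector cells with 24 samples, and in vector cells without growing replicate 4 and RIS replicate 2. In vector cells DUSP4 moves from 1.74 to 3.17 when the 2 samples are left out, and SPRY4 and DUSP10 lie between -0.057 and 0.20 in all 3 fits.

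The question whether the hairpin alone shifted these genes is answered by the comparison of shHMGA1 with growing cells. DUSP10 (Entrez 11221, GRCh37 chromosome 1, 221874766 to 221915431, minus strand, 4 exons) was the 1 gene of the 10 that was called, against 0.270% of all genes in either direction and 0.135% called higher. It had 31.1, 38.5 and 39.8 CPM in growing and 55.1, 62.5 and 66.9 CPM in shHMGA1 cells, so that every hairpin sample lay above every vector sample, which held for 0.749% of all genes. The rise was 0.74 (SE 0.11, adjusted p = 0.00085), or 1.67-fold, and growing replicate 4 (38.6 CPM) and RIS replicate 2 (41.4 CPM) both lay below every sample with the hairpin. Over 22 samples it was 0.75 (SE 0.11, adjusted p = 0.00017), against 1.21% of genes called higher. Without the samples numbered 5 it was 0.70 with an adjusted p of 0.012, no longer called.

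No other feedback gene was called with the hairpin in growing cells. The largest differences were -0.91 for DUSP4 (SE 0.54, adjusted p = 0.49) and -0.66 for DUSP5 (SE 0.30, adjusted p = 0.35), where growing replicate 4 held the highest value of its group. Over 22 samples DUSP4 stood at 0.30 (SE 0.20, adjusted p = 0.26) and DUSP5 at -0.20 (SE 0.13, adjusted p = 0.26). DUSP6 and SPRY2 moved from -0.11 and -0.12 to 0.37 (SE 0.11, adjusted p = 0.025) and 0.48 (SE 0.14, adjusted p = 0.026). Leaving out the samples numbered 4 alone also gave positive values for DUSP4 (0.28), DUSP6 (0.35) and SPRY2 (0.48). With all 24 samples DUSP6 and SPRY2 were above 0 as well under the replicate block (0.013 and 0.073) and with library totals (0.049 and 0.066), so that neither had a settled direction.

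In senescent cells, RIS+shHMGA1 against RIS, DUSP10 was again the 1 gene called, against 2.55% of all genes in either direction and 1.77% called higher. It had 36.2, 38.7 and 44.5 CPM in RIS and 51.0, 63.4 and 78.8 CPM in RIS+shHMGA1 cells, and rose by 0.71 (SE 0.11, adjusted p = 0.00074). For DUSP10 and SPRY2 every RIS+shHMGA1 sample lay above every RIS sample, which held for 8% of all genes. SPRY2 had 53.3, 232 and 249 CPM in RIS and 250.02, 263 and 292 CPM in RIS+shHMGA1 cells, a difference of 0.39 (SE 0.35, adjusted p = 0.38). Over 22 samples DUSP10 differed by 0.73 (SE 0.11, adjusted p = 0.00032), against 10% of genes called higher, and SPRY2 by 0.19 (SE 0.14, adjusted p = 0.29). With library totals in place of TMM the median of all genes moved to -0.37 here and DUSP10 to 0.43 (adjusted p = 0.023), no longer called. Leaving out the samples numbered 5 also ended its call, at 0.65 (adjusted p = 0.012).

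The inhibitors upstream of the kinases had differences of both signs in senescent cells, none of them called. SPRED1 had 75.9, 132 and 149 CPM in RIS and 135, 170.2 and 198 CPM in RIS+shHMGA1 cells, a difference of 0.39 (SE 0.16, adjusted p = 0.063). SPRED2 went the other way, with 57.7, 60.7 and 83.9 CPM against 45.0, 48.4 and 62.0 CPM, a difference of -0.35 (SE 0.12, adjusted p = 0.028), and SPRY4 stood at -0.32 (SE 0.18, adjusted p = 0.14). Over 22 samples they stood at 0.28 (SE 0.10, adjusted p = 0.036) for SPRED1, -0.38 (SE 0.12, adjusted p = 0.013) for SPRED2 and -0.33 (SE 0.17, adjusted p = 0.12) for SPRY4, again not called. With library totals SPRED2 was at -0.64 (adjusted p = 0.0039) and was called lower, in the direction of that shift.

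**Figure D3:**
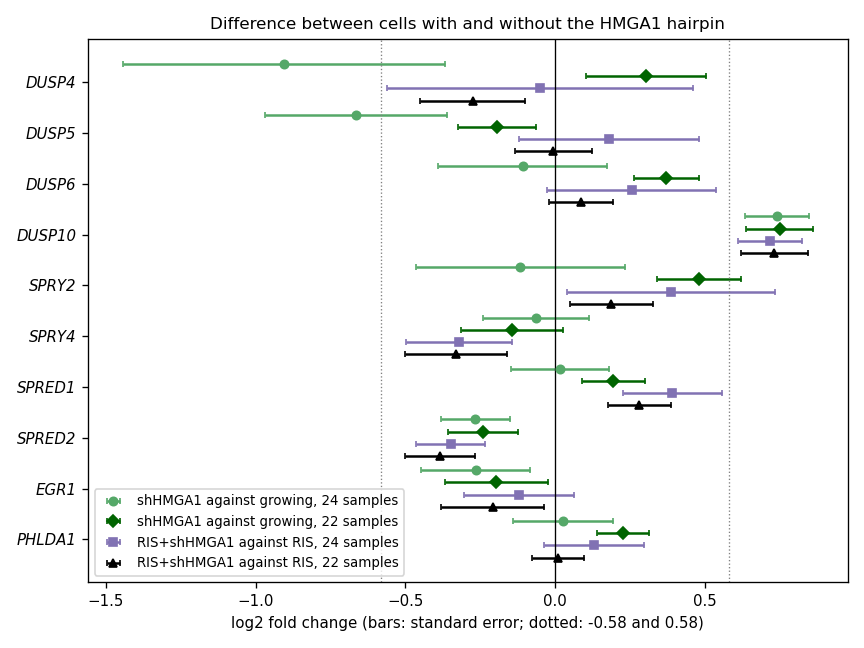
Log2 fold change between cells with and without the hairpin for each gene (point) with its standard error (bar), in growing and in 4OHT-treated cells, with 24 and with 22 samples. DUSP10 lies between 0.71 and 0.75 in all 4 fits, and DUSP4, DUSP6 and SPRY2 in growing cells change sign when growing replicate 4 and RIS replicate 2 are left out.

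Whether the response to 4OHT differed between hairpin and vector cells was tested by the interaction of hairpin and RAS. None of the 10 genes was called, against 0% of all genes, and none had an unadjusted p under 0.05 in edgeR's test, which 1371 of all genes had. DUSP4 had the largest estimate, 0.86 (SE 0.74, adjusted p = 0.53) over 24 samples and -0.58 (SE 0.27, adjusted p = 0.99) over 22, so that its direction turned with the 2 samples. Its unadjusted p over 22 samples was 0.040. For DUSP10 the estimate was -0.023 (SE 0.15, adjusted p = 0.94), or -0.018 (SE 0.16) over 22 samples, beside differences with the hairpin of 0.74 in growing and 0.71 in senescent cells. A standard error of 0.15 to 0.74 over the 10 genes, or 0.12 to 0.27 over 22 samples, leaves room for differences in response that this design could not detect.

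When RIS+shHMGA1 cells were compared with growing cells, 7 of the 10 genes were called higher, against 22% of all genes. DUSP10 had the smallest adjusted p, at 0.80 (SE 0.11, adjusted p = 7.3e-05), followed by SPRED1 at 1.02 (SE 0.17, adjusted p = 0.00014) and DUSP6 at 1.49 (SE 0.29, adjusted p = 0.00033). DUSP4 (1.69), DUSP5 (1.31), SPRY2 (1.43) and PHLDA1 (0.72) were also called. Over 22 samples, which leave growing replicate 4 out, the same 7 genes were called, against 28.3% of all genes. DUSP4 then rose by 2.90 (SE 0.20) and SPRY2 by 2.03 (SE 0.15), or 7.45-fold and 4.08-fold. DUSP6 rose by 1.97, DUSP5 by 1.78, SPRED1 by 1.20, PHLDA1 by 0.92 and DUSP10 by 0.81. With 1 replicate number left out, DUSP4 kept its call only without number 4 (2.90) and had adjusted p values of 0.022 to 0.047 otherwise. SPRY2 lost its call without number 1 (adjusted p = 0.013), number 3 (adjusted p = 0.013) or number 6 (adjusted p = 0.011). This comparison shares its samples with the others and is no separate observation of the genes.

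EGR1, SPRED2 and SPRY4 differed between replicates 1 to 4 and replicates 5 and 6 in 4OHT-treated vector cells. The labels give no batch, so that this split is one of replicate numbers only. In RIS replicates 5 and 6, EGR1 stood at 60.2 and 58.7 CPM, SPRED2 at 83.9 and 73.6 CPM and SPRY4 at 253 and 234 CPM. In RIS replicates 1 to 4 the same genes reached at most 33.5, 60.9 and 174 CPM, so that replicates 5 and 6 were the highest of the group for each of them. RIS+shHMGA1 replicates 5 and 6 were likewise the highest of their group for SPRY4 (188 and 181 CPM, against at most 128 CPM), SPRED2 (62.0 and 60.4 CPM, against at most 49.9 CPM) and DUSP10 (78.8 and 78.7 CPM, against at most 64.5 CPM). The same held for DUSP5 (188 and 223 CPM, against at most 159 CPM) and DUSP6 (576 and 572, against 520). It held for PHLDA1 too (1081 and 1182 CPM, against at most 1060 CPM). In RIS cells DUSP6 had the same order (512 and 498 CPM, against at most 492 CPM). RIS replicates 5 and 6 lay at 16.8 and 22.2 on the first principal component of all tested genes. RIS replicates 1, 3 and 4 lay at 56.0 to 62.1. The split was thus not particular to these genes, nor was it to 4OHT-treated cells. In shHMGA1 cells replicates 5 and 6 were the highest for DUSP5 (51.2 and 49.3 CPM, against at most 46.5 CPM). The same held there for SPRY2 (110 and 119 CPM, against at most 86.8 CPM). For DUSP4 they were the lowest of that group (5.72 and 6.91 CPM, against at least 7.47 CPM). In growing cells they were the lowest for DUSP6 (116 and 107 CPM, against at least 146 CPM). Between RIS and growing cells, EGR1 differed by 1.14 (SE 0.21, adjusted p = 0.0016) in a fit of replicates 5 and 6 alone, in which 6.12% of genes were called higher. In replicates 1 to 4 without the 2 samples against their labels, a fit chosen after seeing the data, EGR1 differed by 0.19 (SE 0.14, adjusted p = 0.24). SPRED2 differed by 0.77 (SE 0.19, adjusted p = 0.0098) in the first fit, in which it was called, and by 0.36 (SE 0.11, adjusted p = 0.0074) in the second, under the required fold change. SPRY4 stood at 0.45 (SE 0.19, adjusted p = 0.11) in the first and at -0.18 (SE 0.12, adjusted p = 0.21) in the second fit. EGR1, SPRED2 and SPRY4 were singled out by the values of RIS replicates 5 and 6. Their larger differences in the first fit follow in part from that choice and are no separate support. The difference between the fits was not tested.

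The wider lists place the 10 genes in their pathway. Among 14 tested genes of other feedback and negative regulators (of 17, without DUSP2, DUSP9 and SPRY3), 3 were called higher and 4 lower in RIS+shHMGA1 than in shHMGA1 cells, against 39.1% of all genes in either direction. ERRFI1, a cytoplasmic inhibitor of the EGF receptor family, rose by 2.16 (SE 0.38, adjusted p = 0.00027), from 121, 130.5 and 139.8 CPM to 406, 612 and 747 CPM. DUSP16, a phosphatase of JNK and p38, rose by 1.14 (SE 0.23, adjusted p = 0.00044). SPRY1, a further Sprouty gene, fell by 1.90 on the log2 scale (SE 0.38, adjusted p = 0.00045), from 3.63, 4.34 and 5.47 CPM to 0.888, 1.14 and 1.59 CPM. DUSP7, an ERK phosphatase of the cytoplasm like DUSP6, fell by 1.01 (SE 0.23, adjusted p = 0.0012). SPRY1 and DUSP7 were thus lower with RAS while their relatives SPRY2 and DUSP6 were higher. The remaining called genes, named after their values were seen, were PEBP1, which binds RAF, at 0.60 and the RAS GTPase activators RASA1 at -0.97 and RASAL2 at -0.71.

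Of 15 tested output transcription factors and immediate-early genes (of 17, without EGR4 and IER3), 3 were called higher and 3 lower in the same comparison. EGR3, a relative of EGR1, rose by 1.74 (SE 0.54, adjusted p = 0.0086) from a median of 0.403 CPM to 1.56 CPM, and MYC rose by 1.23 (SE 0.26, adjusted p = 0.00072). FOSL1, a partner in AP-1, fell by 0.92 (SE 0.20, adjusted p = 0.00075) and the ETS factor ETV1 by 0.80 (SE 0.18, adjusted p = 0.00089). MAFF at 0.65 and the receptor gene EPHA2 at -0.77 were the others, named after their values were seen. Of 20 tested components of the kinase cascade (of 21, without KSR2), 2 were called higher and 2 lower. These were kinases of the RSK family, which ERK activates, with RPS6KA1 at 1.87 (SE 0.34), RPS6KA3 at 1.07 (SE 0.18) and RPS6KA2 at -1.49 (SE 0.35), and the RAS exchange factor SOS1 at -0.63 (SE 0.18). The list medians of -0.15, -0.25 and -0.22 were below the median of all genes, whereas that of the 10 feedback genes was above it. The 10 genes were proposed with earlier results of these data known, so that this contrast can follow in part from their choice.

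In RIS against growing cells none of these genes was called over 24 samples. Over 22 samples 2 were called higher and 4 lower among the feedback regulators, 3 and 2 among the outputs and 2 and 3 in the cascade, against 39.7% of all genes in either direction. ERRFI1 (1.76), DUSP16 (1.34), SPRY1 (-1.76) and DUSP7 (-1.03) had the same signs there as in hairpin cells. The others, named after their values were seen, were RASA1 (-0.79), RASAL2 (-0.79), EGR3 (2.44), MYC (1.30), MAFF (0.68), FOSL1 (-0.96), CCND1 (-0.66), RPS6KA1 (1.66), RPS6KA3 (1.07), RPS6KA2 (-1.50), KSR1 (-0.76) and SRF (-0.63).

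In RIS+shHMGA1 against growing cells 2 feedback regulators were called higher and 5 lower, 0 outputs higher and 4 lower, and 2 cascade genes higher and 6 lower, against 45.9% of all genes in either direction. Named after their values were seen, DUSP16 (0.75) and PEBP1 (0.73) were higher and SPRY1 (-1.21), DUSP7 (-1.14), DUSP8 (-1.06), RASAL2 (-1.06) and RASA1 (-1.02) lower among the regulators. Of the outputs EPHA2 (-1.02), FOSL1 (-0.97), CCND1 (-0.77) and ETV4 (-0.66) were lower. Over 22 samples 3 regulators were higher and 6 lower, 2 outputs higher and 6 lower, and 2 cascade genes higher and 6 lower, against 56.9% of all genes, with ERRFI1 (1.78), EGR3 (1.35) and MYC (0.96) among those then called higher. None of the lists' genes was called in shHMGA1 against growing cells with 24 or 22 samples, where 0.270% of all genes were called over 24. In RIS+shHMGA1 against RIS cells 1 output, EPHA4, was lower, at -0.74 (SE 0.15, adjusted p = 0.0051), against 2.55% of all genes called in either direction. EPHA4 was likewise named after its value was seen. Over 22 samples EPHA4 stood at -0.70 (SE 0.13, adjusted p = 0.00094) there, and EGR3 (-1.09) and EPHA2 (-0.60) were called lower as well. Of all genes 12.5% were then called in either direction.

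**Figure D4:**
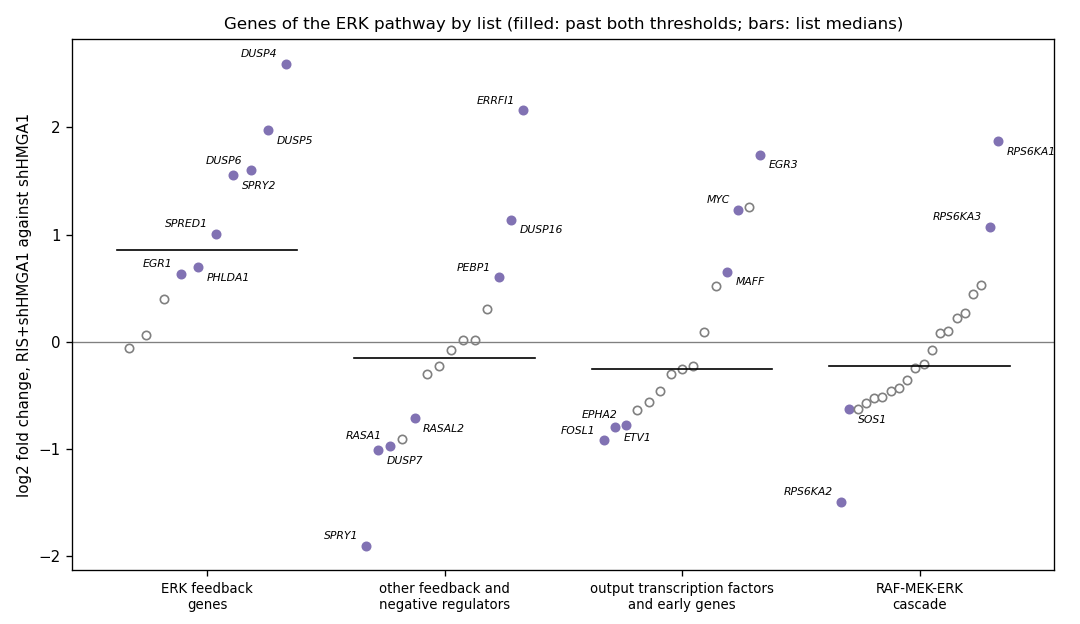
Log2 fold change of RIS+shHMGA1 against shHMGA1 for each tested gene of the 10 feedback genes and of the 3 wider lists, sorted within each list, with filled points for called genes and bars at list medians. The 10 feedback genes, proposed with earlier results of these data known, have a median of 0.85 and hold no called gene below 0. Each other list holds called genes on both sides.

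Levels can be set side by side between genes only per length of transcript. Per kilobase of the canonical transcript, the median level in growing cells was highest for PHLDA1 (96.9 CPM per kilobase) and lowest for DUSP4 (1.13 CPM per kilobase). DUSP6 (40.5), SPRY4 (31.8), SPRY2 (29.3) and DUSP5 (20.2) followed PHLDA1, and the ranges of neighbours in this order overlapped. Without growing replicate 4 the order of these 5 genes was the same, at 92.1, 40.2, 32.1, 23.9 and 18.3, DUSP4 stood lowest at 1.04, and PHLDA1 (86.2 to 105 CPM per kilobase) no longer overlapped DUSP6. In RIS+shHMGA1 cells the order was PHLDA1 (176), DUSP6 (139.5), SPRY2 (115) and DUSP5 (62.8), with no overlap between the samples of one and the next. SPRY4, DUSP10 and SPRED1 followed at 25.7, 24.5 and 23.4 CPM per kilobase with overlapping ranges, and DUSP4, at 9.24, remained the lowest of the 10 by its median. DUSP4 thus had the largest fold change with RAS and the lowest level per length in that group.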

How the data were processed

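RNA was measured in 24 samples of IMR90 ER:HRAS(G12V) cells, 6 per group, with a stranded mRNA kit. Per the labels and the study's methods, the authors trimmed adapters with Cutadapt 1.10.0, mapped reads to hg19 with STAR 2.5.0b and counted reads per gene with Rsubread, whose version, annotation and strand setting are not given in the sources used here. The deposited values are raw counts for 25702 Entrez identifiers, of which 23696 matched a symbol in the RefSeq table. Groups and replicate numbers were taken from the labels. Genes were filtered with filterByExpr by group (13356 kept) and normalised by TMM, and all 24 samples entered one quasi-likelihood fit of group means in edgeR 4.0.16 (R 4.3.3, limma 3.58.1). SE is the absolute log2 fold change divided by the root of the quasi-likelihood F statistic. CPM has no added constant, and log2 CPM a prior count of 2. DESeq2 1.42.0, limma's voom and the other alternatives are reported with the dependence on processing. The fit was run on simulated counts with known changes in RIS+shHMGA1 against shHMGA1 only. No simulated sample went against its label, and the outcome is not given here. No pair of samples within a group agreed within sampling noise. Gene positions come from GENCODE lifted to GRCh37 and are 1-based. The 10 genes and the pathway and marker lists were chosen with earlier results of these data known. The pathway lists were written from textbook knowledge of the pathway and not from these values. From each list the 2 genes with the largest change in each direction past the thresholds were named, together with HMGA1 and the 5 genes most like DUSP6. The p-values measure the spread between biological replicates, which are cultures of the same cell line and not different donors. In the fit of 24 samples that spread includes the 2 samples that went against their labels.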

Additional observations from a re-analysis of the deposited data

Results flagged for a closer look

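In each of the 40 groups of 6 samples (10 genes in 4 groups), the gap between the most extreme sample and its neighbour was divided by the range of the group, and 11 groups were above the Dixon critical value of 0.625, where chance alone gives about 5% or 2 groups. The growing group exceeded it through replicate 4 in 5 genes. The ratio was 0.941 for DUSP4 (58.9 CPM), 0.861 for DUSP5 (164 CPM), 0.879 for DUSP6 (449.6 CPM), 0.829 for SPRY2 (266 CPM) and 0.796 for PHLDA1 (1068 CPM), and in each of them the sample was the highest of its group. The RIS group exceeded it through replicate 2, the lowest sample, in 5 genes, with a ratio of 0.668 for DUSP5 (47.0 CPM), 0.871 for DUSP6 (166 CPM), 0.845 for SPRY2 (53.3 CPM), 0.706 for SPRED1 (75.9 CPM) and 0.816 for PHLDA1 (555 CPM). The last was PHLDA1 in shHMGA1 replicate 6 (738 CPM), with a ratio of 0.628. DUSP10, SPRY4, SPRED2 and EGR1 had no such sample in any group.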

How the results depend on the processing

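The count of the 10 genes called was recomputed under each alternative. In RIS against growing it was 0 and became 4 with DESeq2's Wald test, 3 with the likelihood ratio test, 6 at an FDR of 0.05, 6 with voom and sample quality weights, 7 without growing replicate 4 and RIS replicate 2, and 7 with replicates 5 and 6 only. Of all genes, 19.2% were called higher without those 2 samples and 6.12% with replicates 5 and 6 only. The share of all genes called thus moved with the setting too. Shares for the other settings are not given here, so these counts are no trait of the 10 genes alone. Leaving out 1 number at a time gave 0 to 6, with 4 without number 2 and 6 without number 4. In shHMGA1 against growing the count of 1 became 0 with glmTreat, which tests against the required fold change, 0 with replicates 1 to 4 only, 0 with replicates 5 and 6 only, and 0 to 1 with a number left out (0 without number 5). In RIS+shHMGA1 against growing the count of 7 became 1 with glmTreat, 0 with replicates 1 to 4 only and 4 to 7 with a number left out (4 without number 1 and without number 6). In RIS+shHMGA1 against RIS the count of 1 became 0 with glmTreat, 0 with replicates 1 to 4 only, 0 with replicates 5 and 6 only and 0 to 1 with a number left out (0 without number 5). In RIS+shHMGA1 against shHMGA1 the count of 7 became 4 with library totals alone, 3 with glmTreat, 0 with replicates 1 to 4 only and 5 to 7 with a number left out. Replicates 1 to 4 without growing replicate 4 and RIS replicate 2, a fit chosen after seeing the data, gave 6 in RIS against growing and 2 in shHMGA1 against growing. The interaction stayed at 0 in every alternative run. The main fit did not take the replicate numbers as pairs, since the study's methods name no such block. Samples with the same number were more alike, on average, than others. Of 36 same-numbered pairs 24 had a correlation of deviations over 0.1 (mean 0.18), against 57 of 180 pairs with different numbers (mean -0.050). Of 24 samples 10 correlated best with their own number, so that some pairing by number cannot be set aside. With the replicate block the counts were 0, 1, 7, 1, 7 and 0 in the order of the comparisons above, the interaction last.

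Of the single-gene values recomputed, 1049 kept their direction and side of the threshold, 50 came to pass it, 58 no longer passed it and 93 changed sign. No value that passed both thresholds in the fit of 24 samples changed sign, and the cause of the changes was not tested. Library totals alone moved the median of all genes to -0.40 in RIS+shHMGA1 against growing, -0.37 against RIS, -0.45 against shHMGA1 and -0.41 in the interaction.  With library totals alone the new values were, in shHMGA1 against growing DUSP6 0.049 and SPRY2 0.066, in RIS+shHMGA1 against growing SPRED2 -0.19, in RIS+shHMGA1 against RIS DUSP5 -0.081, DUSP6 -0.021 and PHLDA1 -0.15, in RIS+shHMGA1 against shHMGA1 DUSP10 -0.34 and SPRED2 -0.011, in the interaction DUSP6 -0.070, SPRED1 -0.027, EGR1 -0.25 and PHLDA1 -0.30. With the replicate block the new values were, in shHMGA1 against growing DUSP6 0.013 and SPRY2 0.073. With voom and sample weights the new values were, in RIS against growing DUSP10 -0.025 and SPRY4 -0.092, in shHMGA1 against growing DUSP4 0.28, DUSP6 0.31 and SPRY2 0.48, in RIS+shHMGA1 against RIS DUSP5 -0.12, EGR1 0.060 and PHLDA1 -0.0038, in RIS+shHMGA1 against shHMGA1 DUSP10 -0.023, in the interaction DUSP4 -0.47, DUSP6 -0.25, DUSP10 0.0020, SPRY2 -0.31 and PHLDA1 -0.23. Without growing replicate 4 and RIS replicate 2 the new values were, in shHMGA1 against growing DUSP4 0.30, DUSP6 0.37 and SPRY2 0.48, in RIS+shHMGA1 against RIS DUSP5 -0.0063, in the interaction DUSP4 -0.58, DUSP6 -0.28, SPRY2 -0.29, EGR1 -0.013 and PHLDA1 -0.22. With replicates 1 to 4 only the new values were, in RIS against growing DUSP10 -0.027, in shHMGA1 against growing SPRY4 0.050, SPRED1 -0.0035 and PHLDA1 -0.024, in RIS+shHMGA1 against growing SPRED2 -0.039, in RIS+shHMGA1 against RIS DUSP4 0.17 and EGR1 0.17, in RIS+shHMGA1 against shHMGA1 DUSP10 -0.092. With replicates 5 and 6 only the new values were, in shHMGA1 against growing DUSP4 0.27, DUSP6 0.40 and SPRY2 0.43, in RIS+shHMGA1 against growing SPRY4 0.11, in RIS+shHMGA1 against shHMGA1 SPRY4 0.38, in the interaction DUSP4 -0.89, DUSP6 -0.16, DUSP10 0.025, SPRY2 -0.12 and EGR1 -0.17. With replicates 1 to 4 without those 2 samples the new values were, in RIS against growing DUSP10 -0.077 and SPRY4 -0.18, in shHMGA1 against growing DUSP4 0.29, DUSP6 0.32 and SPRY2 0.58, in RIS+shHMGA1 against growing SPRED2 -0.014, in RIS+shHMGA1 against RIS DUSP5 -0.24, EGR1 0.12 and PHLDA1 -0.067, in RIS+shHMGA1 against shHMGA1 DUSP10 -0.094, in the interaction DUSP4 -0.48, DUSP5 -0.085, DUSP6 -0.31, SPRY2 -0.46, SPRED1 -0.0013 and PHLDA1 -0.37. With 1 replicate number left out at a time, results that changed sign ranged, in shHMGA1 against growing SPRED1 -0.059 to 0.16, PHLDA1 -0.037 to 0.21, DUSP4 -1.13 to 0.28, DUSP6 -0.22 to 0.35 and SPRY2 -0.26 to 0.48, in RIS+shHMGA1 against RIS DUSP4 -0.36 to 0.10 and EGR1 -0.20 to 0.032, in RIS+shHMGA1 against shHMGA1 SPRY4 -0.18 to 0.0091, in the interaction DUSP10 -0.048 to 0.017, DUSP4 -0.28 to 1.11, DUSP6 -0.039 to 0.54, SPRY2 -0.010 to 0.68 and PHLDA1 -0.042 to 0.22.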

Other observations

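Among genes outside the set, the 5 whose pattern over the 24 samples was most like that of DUSP6 were ATP6V1B2, CNIH3, GDNF, FKBP1A and STX3. Likeness was measured as the root mean square difference of log2 CPM after each gene was centred on its own mean, and was 0.16 for ATP6V1B2 and CNIH3, 0.17 for GDNF, 0.19 for FKBP1A and 0.20 for STX3, against 0.34 for DUSP5 and 0.35 for SPRY2, the nearest of the other feedback genes. ATP6V1B2, a subunit of the vacuolar proton pump, had medians of 74.3 CPM (growing), 84.0 CPM (shHMGA1), 239 CPM (RIS) and 264 CPM (RIS with the hairpin). GDNF, a secreted neurotrophic factor, had 11.3, 13.3, 38.9 and 37.9 CPM in the same order. FKBP1A, which codes for a prolyl isomerase, had 302, 316, 839 and 985 CPM. These genes were ranked on all 24 samples, which include growing replicate 4 and RIS replicate 2, and samples share the difference between treated and untreated groups, so that the ranking is a description and carries no test.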
